A study of Mus musculus with 16 samples.

Results

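Desmosomes, adherens junctions, tight junctions and gap junctions join the keratinocytes of the epidermis to one another, and 32 genes that encode their parts were followed in dorsal skin of mice with and without a Gab1 mutation. The genes were chosen by name, from the platform's gene symbols and not by a cut on their values, though with earlier results of these data known. Of the 32 genes, 29 had a probe on the array, with 44 probes in all, and 23 genes with 32 probes gave enough signal to be tested, among 14504 probes of 10013 genes tested over the whole array. The probe with the highest mean stands for a gene unless another is named.

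The study hybridised 16 single-colour Illumina bead arrays, 7 assigned by their labels to mutants (genotype K14-cre; Gab1fl) and 9 to control mice, whose labels give no Cre or floxed allele beyond the word control. All mice were 15 days old and of strain C57/BL6;129Ola mixed. K14-cre places Cre recombinase under the promoter of Krt14, a keratin gene of basal and follicular keratinocytes, so that other cells of the skin keep Gab1, a docking protein downstream of receptor tyrosine kinases. The tissue label reads dorsal skin, whereas the design text speaks of cells sorted for integrin alpha 6, and which of these was hybridised was not settled.

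A desmosome holds cells together through desmosomal cadherins (desmogleins and desmocollins), which a plaque of plakoglobin, plakophilins and desmoplakin ties to keratin filaments. Tight junctions of claudins and occludin seal the granular layer, and gap junctions of connexins pass small molecules between cells. The isoforms change as keratinocytes leave the basal layer: Dsg3 and Dsc3 are known as lower-layer cadherins of the epidermis, and Dsg1 and Dsc1 as upper-layer ones.

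The arrays did not behave as 16 separate samples. Within a group they fell into sets that correlated at 0.994 to 0.996 (18 pairs), whereas arrays of different sets correlated at 0.935 to 0.936 in the mutants and at 0.961 to 0.986 in the controls. Each set lay on both of the 2 slides. A set is called a source below, and the arrays of a source were averaged, which left 2 mutant sources (1 of 3 arrays, 2 of 4 arrays) and 3 control sources of 3 arrays each. The labels do not say what a source is. Control source 2 lay between control sources 1 and 3 at 98.2% of the 1203 probes at which these differed by more than 1 on the log2 scale, and the labels do not say whether it is a pool. Between 13406 and 14636 of 25697 probes were detected per array (detection p below 0.05). Gab1 itself was 12.69, 12.69 and 12.68 (log2 signal) in control sources 1 to 3 and 11.34 and 11.97 in mutant sources 1 and 2, a difference of -1.03 (SE 0.21) that did not pass over all probes (limma adjusted p = 0.239). Basal keratinocyte markers were present in all sources (7 of 7 tested, log2 of the summed signal 17.39 to 17.59), and markers of endothelium, fibroblasts and pigment cells were detected as well. In such mixed samples, fewer cells of a type and less RNA per cell cannot be told apart.

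The sequences before the starts of 5 junction genes are shown because these genes carry the results on tight and gap junctions below: Cldn4, Cldn1 and Tjp3 differed most between the mutant sources among tight junction genes, Ocln was the gene higher in both mutant sources, and Gjb2 ran the other way. Each is the 250 bases before the annotated start (RefSeq, build GRCm38.p6), read 5′ to 3′ on the gene's own strand, which is the minus strand for all of them: chr5:134946935-134947184 for Cldn4, chr16:26371840-26372089 for Cldn1, chr10:81291582-81291831 for Tjp3, chr13:100552719-100552968 for Ocln and chr14:57104703-57104952 for Gjb2. Capitals mark matches, on either strand, to the Snail and Zeb E-box CACCTG, the AP-1 motif TGANTCA or the GC box GGGCGG.
Cldn4: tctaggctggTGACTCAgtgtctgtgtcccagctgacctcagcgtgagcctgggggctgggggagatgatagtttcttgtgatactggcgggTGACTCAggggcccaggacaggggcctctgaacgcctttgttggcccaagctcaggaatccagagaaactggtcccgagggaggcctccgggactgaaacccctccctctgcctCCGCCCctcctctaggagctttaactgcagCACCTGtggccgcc
Cldn1: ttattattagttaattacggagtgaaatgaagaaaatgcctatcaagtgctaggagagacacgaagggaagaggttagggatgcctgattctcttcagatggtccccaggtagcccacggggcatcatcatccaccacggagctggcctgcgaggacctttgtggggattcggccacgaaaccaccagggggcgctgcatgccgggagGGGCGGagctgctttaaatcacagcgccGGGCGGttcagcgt
Tjp3: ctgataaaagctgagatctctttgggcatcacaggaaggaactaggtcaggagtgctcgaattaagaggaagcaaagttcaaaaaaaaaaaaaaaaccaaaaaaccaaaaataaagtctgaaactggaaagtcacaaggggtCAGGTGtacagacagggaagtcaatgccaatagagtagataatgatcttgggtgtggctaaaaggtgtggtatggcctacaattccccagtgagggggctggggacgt
Ocln: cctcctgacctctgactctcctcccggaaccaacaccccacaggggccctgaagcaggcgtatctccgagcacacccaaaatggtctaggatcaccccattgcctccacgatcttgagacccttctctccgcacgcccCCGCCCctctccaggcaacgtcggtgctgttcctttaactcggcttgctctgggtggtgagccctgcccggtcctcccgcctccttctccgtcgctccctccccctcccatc
Gjb2: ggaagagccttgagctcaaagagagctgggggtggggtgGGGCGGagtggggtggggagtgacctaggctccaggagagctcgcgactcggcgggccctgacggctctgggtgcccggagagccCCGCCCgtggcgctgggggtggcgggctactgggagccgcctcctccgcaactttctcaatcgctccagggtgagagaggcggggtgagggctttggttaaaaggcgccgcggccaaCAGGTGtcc
Their GC content was 62.0% for Cldn4, 55.6% for Cldn1, 43.2% for Tjp3, 64.0% for Ocln and 69.2% for Gjb2, against a median of 52.0% over all promoters in the table. An entry was found for 16 of the 32 genes. The E-box was present before 4 of these 16 (17.1% of all 27025 promoters), the AP-1 motif before 3 (6.85%) and the GC box before 10 (33.0%). The grainyhead motif AACCNGTT was present before Cgn and Gjb6 (1.74% of all promoters) and the TATA box TATAAA before Gjb5 (13.0%). These matches are letters in a window and not binding sites.

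Averaged over sources, no junction gene differed between mutants and controls past the test, and the intervals of the genes that varied most between sources spanned several-fold differences either way. Mutant against control was tested with limma on the 5 source means and adjusted over all 14504 probes by the Benjamini-Hochberg method, with a threshold of 0.05. No junction probe passed, of 32, against 0.0552% of all probes. None had an unadjusted p under 0.05 either, where 12.1% of all probes did, and the smallest p among them was 0.105 (limma adjusted p = 0.519). With the 16 arrays taken as separate samples, 2 junction probes passed, against 33.9% of all probes. The median difference over the 23 genes was -0.0042 on the log2 scale (range -0.60 to 0.68), beside 0.0025 over all 10013 genes. No junction probe was lower in both mutant sources than in every control source (14.0% of all probes were), and 3 were higher in both (15.8% of all probes).

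**Figure D1:**
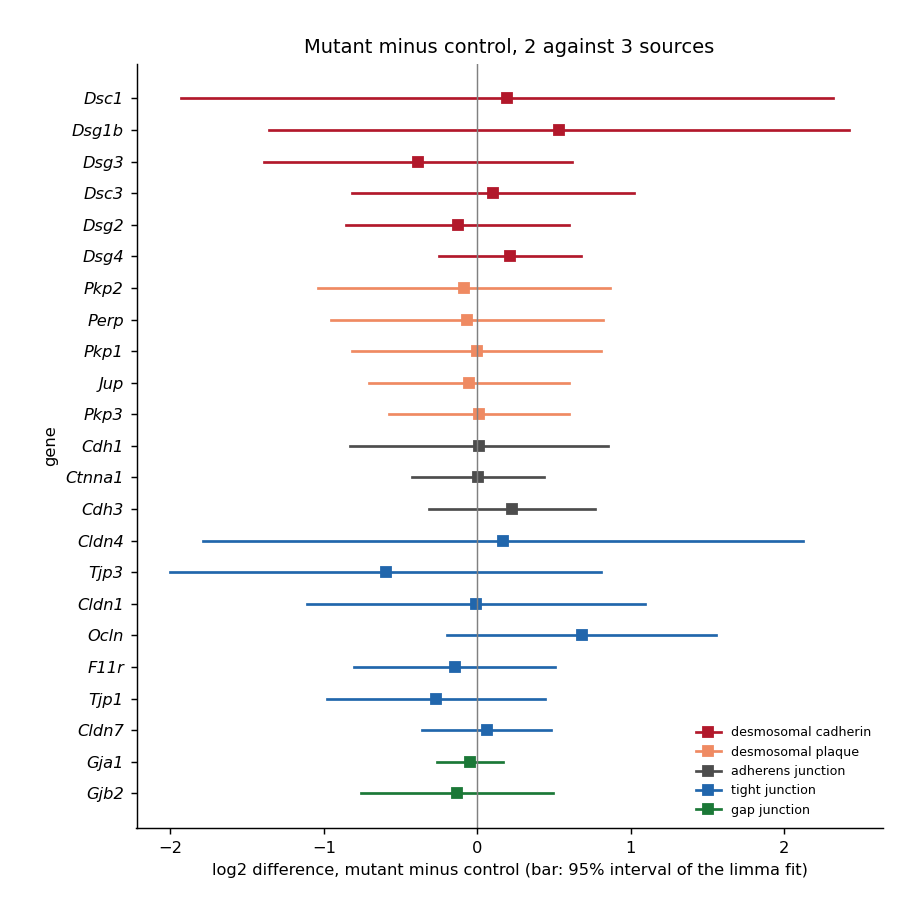
Mutant minus control difference on the log2 scale (horizontal) for the 23 tested junction genes (vertical), as the limma estimate with its 95% interval over 2 mutant and 3 control sources. Every interval crosses 0, and the widest belong to Dsc1, Cldn4, Dsg1b and Tjp3.

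The near-zero averages came from mutant sources on opposite sides of the controls. Mutant source 1 lay below every control source at 20 of the 32 junction probes (32.8% of all probes) and above every one at 9 (39.4%). Mutant source 2 lay above every control source at 23 (36.6%) and below every one at 3 (36.6%). Mutant source 2 exceeded mutant source 1 by at least 1 on the log2 scale, a doubling, at 11 junction probes (8.22% of all probes; 6 junction probes without background correction or with the authors' values), and fell short of it by as much at 0 (7.45%). Over genes, it was higher in 20 of 23, with a median difference of 0.90, beside -0.05 over all 10013 genes. These are single sources, so their difference has no test of genotype, and any statement about the mutants depends on which source is counted: the median over the 23 genes was -0.45 without mutant source 2 and 0.36 without mutant source 1.

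**Figure D2:**
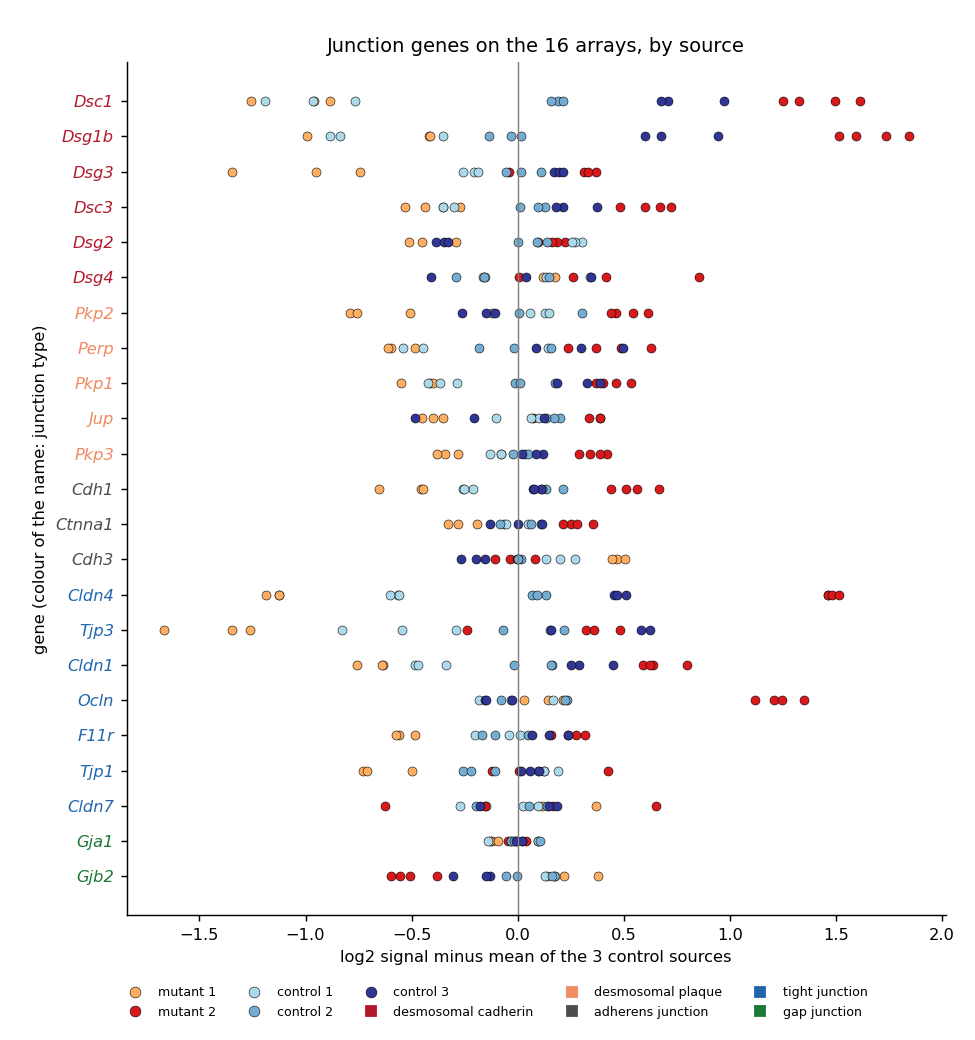
Log2 signal of each of the 16 arrays minus the mean of the 3 control sources (horizontal) for the 23 tested junction genes (vertical, names coloured by junction type), with points coloured by source. Arrays of a source lie close together, and the mutant source 1 and mutant source 2 points lie on opposite sides of the controls for most desmosomal genes and for Cldn1 and Cldn4.

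Among the desmosomal cadherins, the upper-layer isoforms Dsc1 and Dsg1b differed most between the mutant sources. Dsc1, desmocollin 1, had log2 signals of 5.77, 6.93 and 7.53 in control sources 1 to 3 and of 5.71 and 8.16 in mutant sources 1 and 2. The control sources thus spanned much of the range between the mutant ones, and the group difference was 0.19 (SE 0.85, limma adjusted p = 0.957). Dsc1 was near background in control source 1 and mutant source 1, where 2 of 3 arrays each detected it. Dsg1b, one of the desmoglein 1 genes, was 5.63, 6.27 and 7.06 in the controls and 5.71 and 7.99 in the mutants (difference 0.53, SE 0.76, limma adjusted p = 0.842). It was detected on 7 of 9 control and 6 of 7 mutant arrays, and its 2 other probes were not past the filter. Dsg1a, its near-identical neighbour, was detected on 0 arrays, and whether the Dsg1b probe reads only Dsg1b is not stated, so its values may include both genes.

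The lower-layer partners differed less. Dsg3, the desmoglein of the basal and lower spinous layers, was 7.93, 8.17 and 8.34 in the controls and 7.13 and 8.39 in the mutants, so that mutant source 1 stood apart (difference -0.38, SE 0.40, limma adjusted p = 0.767). Dsc3, the matching desmocollin, was 8.59, 9.00 and 9.18 in the controls and 8.51 and 9.54 in the mutants (difference 0.10, SE 0.37, limma adjusted p = 0.947). Dsg2, a desmoglein of simple epithelia and the hair follicle, was 9.09, 8.89 and 8.46 in the controls and 8.39 and 8.98 in the mutants, and the controls ran down where those of Dsc1 ran up. Its difference was -0.13 (SE 0.29, limma adjusted p = 0.913). Dsg4, the hair shaft desmoglein, had source means between 5.55 and 6.04, with an array SD of 0.29. It was detected on 3 of 9 control and 4 of 7 mutant arrays, and its other probes on 0 arrays. Dsc2, a more widespread desmocollin, was detected on 0 arrays.

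The plaque genes repeated the order of the mutant sources in smaller steps, with mutant source 2 higher for 5 of 5 and a median of 0.90. For each of them, mutant source 1 lay below and mutant source 2 above every control source. Pkp1, the plakophilin of the upper epidermis, was 12.52, 12.93 and 13.17 in the controls and 12.42 and 13.32 in the mutants (group difference -0.0042, SE 0.32, limma adjusted p = 0.998). Pkp2, a plakophilin also found in the heart, was 8.18, 8.13 and 7.89 in the controls and 7.38 and 8.58 in the mutants, and its other 2 tested probes also had mutant source 2 higher, by 0.92 and 0.78. Pkp3, present throughout the epidermis, was 11.35, 11.46 and 11.52 in the controls and 11.11 and 11.80 in the mutants. Jup, plakoglobin, which desmosomes share with adherens junctions, was 10.08, 10.23 and 9.87 in the controls and 9.66 and 10.35 in the mutants. Perp, a membrane protein of desmosomes, was 6.36, 6.62 and 6.93 in the controls and 6.07 and 7.07 in the mutants. Dsp, desmoplakin, had no named probe.

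The adherens junction genes split. Cdh1, E-cadherin, was 11.73, 12.13 and 12.06 in the controls and 11.46 and 12.52 in the mutants, as in the desmosome (difference 0.01, SE 0.34, limma adjusted p = 0.995). Cdh3, P-cadherin, which marks basal cells and the hair matrix, was 11.44, 11.25 and 11.04 in the controls and 11.71 and 11.23 in the mutants, so that mutant source 1 was the higher one. All 4 Cdh3 probes had that order. At 2 of them both mutant sources exceeded all controls: 1 read 9.16, 9.18 and 8.93 in the controls and 9.57 and 9.20 in the mutants, the other 6.37, 6.34 and 5.82 in the controls and 6.74 and 6.37 in the mutants. The excess of mutant source 2 there was smaller than the array SD of these probes (0.07 and 0.19). Ctnna1, alpha-catenin, was 14.79, 14.85 and 14.81 in the controls and 14.55 and 15.09 in the mutants. As for Cdh1, the mutant sources lay outside the control range on opposite sides. Ctnnd1, p120-catenin, was detected on 0 arrays.

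Among the tight junction genes, Cldn4 had the largest difference between mutant sources of the 23 genes. Cldn4, a claudin of the granular layer, was 13.32, 14.00 and 14.37 in control sources 1 to 3, 12.75 in mutant source 1 (arrays 12.71 to 12.77) and 15.38 in mutant source 2 (arrays 15.36 to 15.41). Arrays of a source differed by an SD of 0.03, far less than the mutant sources did, at 6.17-fold. The level in mutant source 2 was close to that of Gja1 (15.48 in mutant source 1), near the top of the scale. Differences between sources and between arrays may be compressed there. Because the mutant sources lay on either side of the controls, the group difference was 0.17 (SE 0.78, limma adjusted p = 0.960). Cldn1, the claudin whose loss opens the epidermal water barrier in mice, was 12.26, 12.80 and 13.03 in the controls and 12.02 and 13.36 in the mutants (difference -0.0073, SE 0.44, limma adjusted p = 0.997). Tjp3, the scaffold ZO-3, was 7.29, 7.95 and 8.30 in the controls and 6.42 and 8.08 in the mutants, and a further probe read 7.00, 7.88 and 8.11 against 6.42 and 8.28. Mutant source 1 was below all controls at both. Tjp1, the scaffold ZO-1, was 8.48, 8.15 and 8.40 in the controls and 7.70 and 8.45 in the mutants, and F11r, the adhesion molecule JAM-A, 11.20, 11.20 and 11.43 against 10.74 and 11.52. Again mutant source 1 alone was below the controls by more than their spread.

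Ocln, occludin, was the junction gene with the largest group difference and the smallest p. Like most junction genes it was higher in mutant source 2 than in mutant source 1, but mutant source 1 did not lie below the controls. Ocln was 8.58, 8.72 and 8.49 in the controls, with arrays from 8.42 to 8.83, and 8.73 and 9.83 in the mutants. Mutant source 2 stood clear of all controls (arrays 9.72 to 9.95), whereas the arrays of mutant source 1 (8.63 to 8.81) overlapped them, and its mean exceeded that of control source 2 by less than the array SD of 0.13. The difference of 0.68 (SE 0.35, 95% interval -0.20 to 1.56) did not pass (limma adjusted p = 0.519). It rested on mutant source 2: the difference was 0.13 without that source and 1.23 without mutant source 1. Cldn7, a claudin of the basolateral membrane, had source means between 6.69 and 6.85. Its arrays varied more (SD 0.33, and 6.11 to 7.39 within mutant source 2), so these means do not show a steady level. Cldn3, the neighbour of Cldn4, was detected on 4 of 9 control and 2 of 7 mutant arrays, Cldn8 on 0 at both its probes, and Cgn, cingulin, had no named probe.

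The gap junction genes differed from each other. Like most junction genes, Gja1 was higher in mutant source 2 than in mutant source 1, in very small steps, and Gjb2 was lower. Gja1, the main connexin of lower keratinocytes, was 15.57, 15.61 and 15.60 in the controls and 15.48 and 15.61 in the mutants, with a difference of -0.05 (95% interval -0.26 to 0.17). Its raw signal of 39326 to 56921 lay near the highest signal on the arrays (65773 to 71614), where differences may be compressed, so the small steps do not show a steady level. Gjb2, a connexin of follicular and differentiating keratinocytes, was 13.70, 13.58 and 13.35 in the controls and 13.79 and 13.04 in the mutants, the reverse of Cldn4. A further Gjb2 probe had the same order (12.04, 11.94 and 11.70 against 12.10 and 11.34). The remaining probe, at 9.25, 9.35 and 9.31 against 10.06 and 9.20, also had mutant source 1 higher, by 0.85, without the gradient in the controls. Gjb5, a further epidermal connexin, was detected on 1 of 9 control arrays, and Gjb6, the connexin gene next to Gjb2, had no named probe.

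Junction genes were also grouped by the layer at which an isoform is known to act, and the classes overlapped. The 6 tested genes classed as suprabasal (Dsg1b, Dsc1, Pkp1, Cldn4, Ocln and Gjb2) had a median difference between mutant sources of 1.69, with 5 of 6 higher in mutant source 2. The 5 tested basal genes (Dsg2, Dsg3, Dsc3, Cdh3 and Gja1) had a median of 0.58, with 4 of 5 higher. Dsg3 (1.26) and Dsc3 (1.03) of the basal class exceeded Pkp1 (0.90) of the suprabasal one. Against the control mean, the suprabasal median was -0.53 in mutant source 1 and 1.33 in mutant source 2, and the basal median -0.41 and 0.17. The difference between these classes was not tested.

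**Figure D3:**
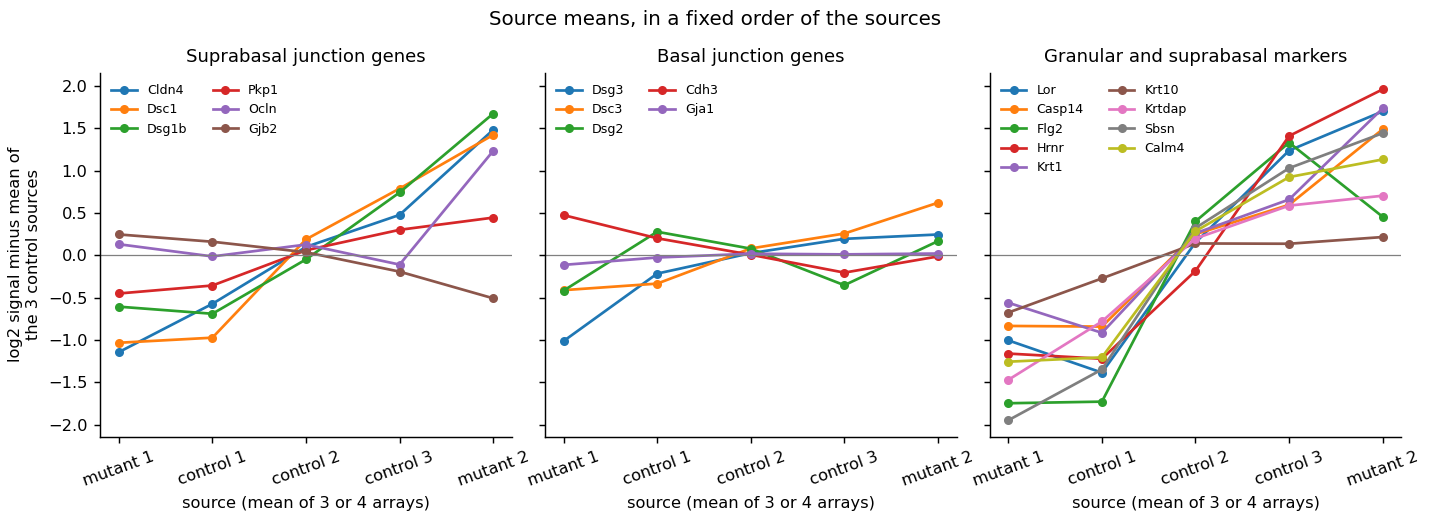
Source means of log2 signal minus the mean of the 3 control sources (vertical) for suprabasal junction genes, basal junction genes and granular and suprabasal keratinocyte markers, with the 5 sources along the horizontal axis in an order chosen after their values were seen. Cldn4 climbs at each step and Gjb2 descends at each step, while Gja1, whose signal is near the top of the scale, lies close to 0.

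The control sources were themselves graded. Control source 3 exceeded control source 1 by at least 1 at 5 junction probes, of Dsc1, Dsg1b, Cldn4 and Tjp3 (4.75% of all probes), and was lower by as much at 0 (3.54%). The sources were also placed in the order mutant source 1, control sources 1, 2 and 3, mutant source 2, chosen after the values were seen. Counts along this order are a description and not a test. Values climbed at every step for 10 junction probes (5.35% of all probes) and descended at every step for 2, both of Gjb2 (7.01%). The 10 were probes of Dsc1, Dsc3, Dsg3, Perp, Pkp1, Pkp3, Cldn1, Cldn4, F11r and Tjp3. On slide 1 alone 6 climbed and 1 descended, and on slide 2 alone 9 climbed and 1 descended. Across genes, which are not independent, the difference between mutant sources and that between control sources 3 and 1 correlated at 0.81 over the 23 junction genes and at 0.45 over all 10013, as a description of these sources.

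**Figure D4:**
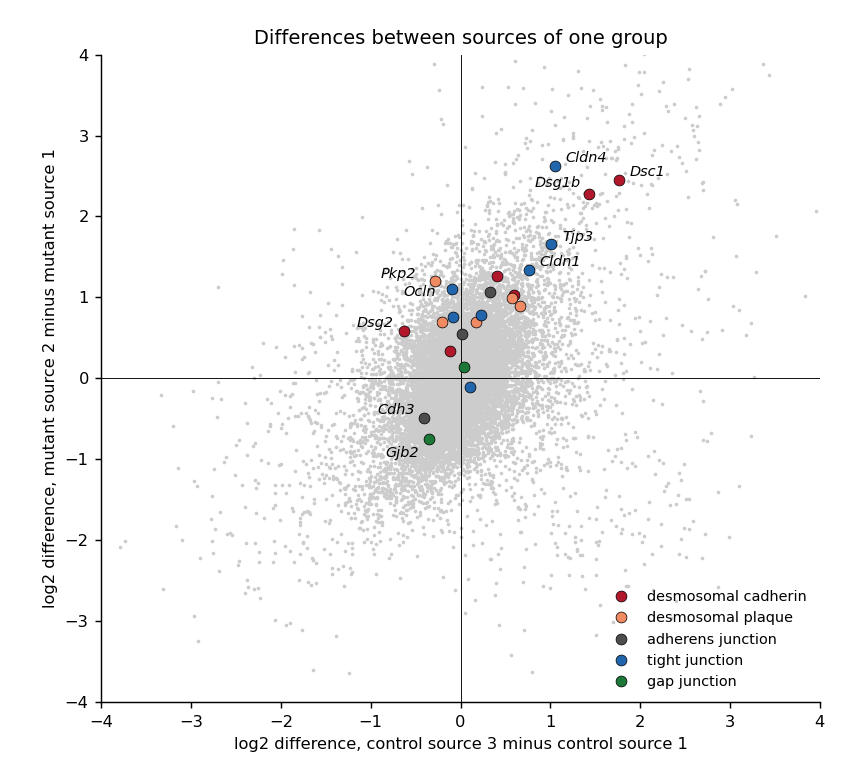
Control source 3 minus control source 1 (horizontal, log2) against mutant source 2 minus mutant source 1 (vertical, log2), with all tested probes in grey, of which 40 lie beyond the axes, and the 23 junction genes coloured by type. Cldn4, Dsc1 and Dsg1b lie far to the upper right, and Cdh3 and Gjb2 to the lower left.

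Markers of keratinocyte layers also differed between the sources. For 4 granular markers, the log2 of their summed signal was 11.36, 12.57 and 13.17 in control sources 1 to 3. It was 11.45 and 13.89 in mutant sources 1 and 2. That of 5 suprabasal markers was 16.05, 16.73 and 16.96 against 15.65 and 17.15. The other marker sets in this paragraph are given in the same way. All 4 granular and all 5 suprabasal markers were higher in mutant source 2 than in mutant source 1, with medians of 2.51 and 2.30. Of the granular ones, Flg2 (4.88 and 4.86) and Hrnr (4.83 and 4.89) were near background in control source 1 and mutant source 1. In the order of sources given above, 0 of 4 granular and 3 of 5 suprabasal markers climbed at every step. The 7 basal markers had a median of 0.27. Lor, loricrin of the cornified envelope, was 9.08, 10.61 and 11.70 in the controls and 9.46 and 12.16 in the mutants. Inner root sheath markers ran the other way, at 13.33, 12.92 and 11.73 in the controls and 13.83 and 11.67 in the mutants (2 of 5 tested). Immune markers (3 of 5 tested) were 12.64, 13.73 and 14.02 in the controls and 14.95 and 12.92 in the mutants, with a median between mutant sources of -2.07. Of these, Cd74 and Lyz2 rose over the controls and were highest in mutant source 1. Cd3e instead fell over the controls (10.01, 8.88 and 8.05) and was below all of them in both mutant sources (7.28 and 5.20). Melanocyte markers (4 of 5 tested) were 13.82, 13.27 and 12.23 in the controls and 13.06 and 11.28 in the mutants, with a median of -1.63. The part of these markers in the junction gene values was not tested.

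Among 72 other junction genes, 39 were tested with limma and 0 passed, while 10 had an unadjusted p below 0.05, 9 of them lower in the mutants (12.2% of all genes had such a p). Source means did not overlap between the groups for 10 genes that were lower (15.3% of all genes) and for 3 that were higher (14.1%), namely Krt5, Lsr and Cldn12. Krt5, a keratin gene listed with the desmosome, was also counted among the basal markers, as was Krt14. Of the 10 lower genes, Panx3, listed with the gap junction, had the largest difference. It was 9.58, 11.40 and 12.25 in the controls and 8.12 and 7.96 in the mutants (difference -3.04, SE 0.77, limma adjusted p = 0.281). Esam, Jam2, Gja4 and Gja5, also among the 10, are known from blood vessels, and they differed by -1.18, -1.68, -0.61 and -1.74. Endothelial markers were lower beside them, with a median of -0.92 over 4 tested, of which Cdh5 is also among the 72 genes. The log2 of their summed signal was 13.00, 13.49 and 14.13 in the controls and 12.59 and 12.88 in the mutants. Their part in these values was not tested. The smallest p among those lower were for Cldn11 and Gjd4. Cldn11, a claudin known from myelin and testis, was 13.43, 13.19 and 13.51 in the controls and 12.47 and 11.45 in the mutants (difference -1.41, SE 0.31, limma adjusted p = 0.256). Gjd4, a connexin, was 6.69, 6.74 and 6.54 against 5.94 and 5.27 (difference -1.05, SE 0.25, limma adjusted p = 0.267). It was detected on 9 of 9 control but 2 of 7 mutant arrays, so it passed the filter through the controls and was near background in the mutants. Both mutant sources were below all controls for Cldn11 and for Gjd4, unlike any tested member. Of the probes with the smallest p among those higher, that of Lsr, a protein of tricellular tight junctions, was 9.63, 9.78 and 9.86 against 10.22 and 10.29 (difference 0.50, limma adjusted p = 0.349), and that of Patj, a polarity scaffold, differed by 0.49 (limma adjusted p = 0.405). The probe with the highest mean for Patj differed by 0.11, and another by -0.35, so its probes disagree. Of 14 transcription factors known to act on junction genes, 13 were tested and 0 passed, with 1 at an unadjusted p below 0.05 (Snai1, difference -1.28). Their median difference between mutant sources was 0.07. In the order of sources given above, 2 of the 13 climbed at every step and 1 descended. Grhl3, a grainyhead factor of the upper epidermis, was 8.61, 9.25 and 9.63 in the controls and 8.32 and 11.90 in the mutants, the same order as Cldn4. Grhl2, of the same family, had the reverse order, at 11.10, 10.88 and 10.66 against 11.22 and 10.48.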

How the data were processed

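The authors deposited probe intensity with a detection p-value for 16 arrays, made with GenomeStudio as the submitters' processing notes state, and a normalized intensity table that equals their quantile-normalized signal (largest difference 3.33%). Probe coordinates were not used. In R 4.3.3 with limma 3.58.1, intensities were corrected by neqc (offset 16), quantile normalized and put on the log2 scale. A probe was tested if 7 or more arrays detected it (detection p below 0.05). Probes were named from the platform annotation (23978 with 1 symbol, 0 with several, 1719 with none).

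Arrays of a group correlating above 0.99 were joined as 1 source. The plan set this over all probes, where the control arrays chain into 1, so the 14504 tested probes were used. Source means were fitted with limma (lmFit, eBayes with trend, 3 residual and 2.53 prior degrees of freedom). P-values measure the spread between sources, which may be technical. On simulated data (10 runs, 200 of 14504 probes changed) this recovered 75.0% of changes with 7.9 false calls per run. Recovery of differences as small as those of the junction genes was not tested.

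Members, lists and layer classes were chosen with earlier results of these data known, the classes from textbook knowledge. Every member is named. Of other junction genes, the 2 with the smallest p in each direction are named, with Gab1 as the targeted gene. Lor, Grhl3, Grhl2, Snai1 and Panx3 were added after their values were seen. Same-numbered arrays of the groups did not deviate together (r over 0.1 in 3 of 7 pairs), so numbers were not taken as pairs. Alternatives covered background correction, scaling, filter, slide, block and leave-outs.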

Additional observations from a re-analysis of the deposited data

How the results depend on the processing

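Without mutant source 2 and without mutant source 1, the lowest and highest medians (log2) were -0.45 and 0.43 for the desmosome, -0.27 and 0.28 for adherens junctions, -0.65 and 0.25 for tight junctions, -0.41 and 0.17 for basal genes, -0.53 and 1.33 for suprabasal genes and -0.45 and 0.36 for all 23 genes; for gap junctions the order was reversed (-0.24 and 0.0653). Gene differences spanned, over all leave-outs, -1.14 to 1.48 for Cldn4, -1.03 to 1.42 for Dsc1, -0.61 to 1.67 for Dsg1b, -1.43 to 0.23 for Tjp3, -1.01 to 0.24 for Dsg3, -0.68 to 0.66 for Cldn1, -0.68 to 0.51 for Pkp2, -0.65 to 0.11 for Tjp1, -0.56 to 0.43 for Perp, -0.54 to 0.25 for F11r, -0.52 to 0.54 for Cdh1, -0.51 to 0.25 for Gjb2, -0.45 to 0.44 for Pkp1, -0.42 to 0.17 for Dsg2, -0.41 to 0.62 for Dsc3, -0.40 to 0.30 for Jup, -0.33 to 0.36 for Pkp3, -0.27 to 0.28 for Ctnna1, -0.11 to 0.0198 for Gja1, -0.0456 to 0.17 for Cldn7 and -0.0146 to 0.47 for Cdh3. For Ocln they spanned 0.13 to 1.23 and for Dsg4 0.044 to 0.39, with no change of sign. The 8 probes called over the whole array became 0 without background correction, with offset 50, at 75th percentile scaling, with the authors' values, on slide 1 and on slide 2. They became 1 with cyclic loess, 4 without a filter, 5 with strict detection, 331 with the slide as a block, 883 with a random block for source and 0 to 8 over leave-outs. With 16 separate arrays 4914 probes and 2 junction probes passed, and with the title number as replicate block 3395 and 1. Ocln passed in both (0.76 and 0.77). Junction probes lower in both mutant sources numbered 2 without a filter. Over leave-outs the count was 0 to 20, where the 20 came without mutant source 2 and describes mutant source 1 alone. Junction probes higher in both numbered 1 at 75th percentile scaling and with cyclic loess, 5 without a filter, 0 on slide 2, 0 for 16 arrays and 0 with the replicate block. Over leave-outs the count was 1 to 23, where the 23 came without mutant source 1 and describes mutant source 2 alone. Probes at least 1 higher in mutant source 2 numbered 6 without background correction and with the authors' values. Signs changed at 75th percentile scaling for Gja1 (0.0418), Pkp1 (0.0686) and Cldn1 (0.063), and with cyclic loess for Gja1 (0.009), Pkp1 (0.0375) and Cldn1 (0.032). On slide 1 they changed for Ctnna1 (-0.0098), Cldn1 (0.0156) and Perp (0.0437), and on slide 2 for Pkp1 (0.0324), Cdh1 (-0.0416), Pkp3 (-0.0039), Pkp2 (0.0245) and Cldn7 (-0.0512). With the slide as a block they changed for Pkp1 (0.0076) and Cdh1 (-0.01), with 16 arrays for Pkp1 (0.0598), Cldn1 (0.0885), Pkp2 (0.0007) and Perp (0.0041), and with the replicate block for Pkp1 (0.12), Cldn1 (0.18) and Perp (0.0723). Of the other alternatives for single genes, 291 kept direction and side of the threshold. The causes were not tested. Mutant source 2 stayed higher than mutant source 1 in 20 or 21 of 23 genes at each setting compared.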
